A study of Homo sapiens with 4 samples.

Results

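The HOXA cluster on chromosome 7 was examined in the ATAC-seq peak lists of 4 libraries from HL-60 cells, an established line of human promyelocytic leukemia cells, which become granulocyte-like when given all-trans retinoic acid (ATRA). ATAC-seq reports open chromatin as the places where the Tn5 transposase inserts adapters. Cells of the ATRA group were kept with 1 µM ATRA and those of the control group with the same amount of ethanol, the solvent, both for 4 days, and each group had 2 replicates, which the study describes as independent biological replicates. The 9 genes considered were HOXA2, HOXA3, HOXA4, HOXA5, HOXA6, HOXA7, HOXA9, HOXA10 and HOXA11. The window ran from 50 kb below the lowest to 100 kb above the highest coordinate of these genes (chr7:27089973-27324851, hg19, 234879 bp). Peaks of the lists that overlapped by at least 1 bp were joined into regions. The window held 8 regions of the 78063 in the genome, and 7 of them had a peak in at least 2 libraries.

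HOX genes encode homeodomain transcription factors that give cells their position along the body axis. Their order on the chromosome follows the order in which they are switched on, and genes toward the 3′ end of a cluster are the ones that respond most directly to retinoic acid. Polycomb and Trithorax group proteins keep the clusters silent or active, and CTCF sites divide them into domains. In blood, HOXA9 and HOXA10 are active in early progenitors and are switched down as myeloid cells mature, and high HOXA9 is common in acute myeloid leukemia. All HOXA genes lie on the minus strand, so that lower coordinates are toward the 3′ end of the cluster.

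The sequences that bear on the results come first. Retinoic acid receptors bind direct repeats of a 6-letter half-site, which are named by the number of bases between the copies (DR1, DR2 and DR5). A region in the 3′ flank of the 9 genes held a DR5 repeat, and its neighbour toward HOXA2 held a DR2 repeat. The bases shared by all peaks of these regions are printed on the plus strand of hg19, chr7:27111265-27111548 and chr7:27119247-27119484. Capitals mark matches to the DR5, GATA and CEBP motifs in the first and to the DR2 motif, which lies on the minus strand, in the second.
Far 3′ region: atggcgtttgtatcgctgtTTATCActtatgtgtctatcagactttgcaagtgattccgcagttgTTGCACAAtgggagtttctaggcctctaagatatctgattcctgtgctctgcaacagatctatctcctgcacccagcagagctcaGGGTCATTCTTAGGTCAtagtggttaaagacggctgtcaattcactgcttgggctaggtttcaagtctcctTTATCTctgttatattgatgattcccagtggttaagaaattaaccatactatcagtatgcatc
Near 3′ region: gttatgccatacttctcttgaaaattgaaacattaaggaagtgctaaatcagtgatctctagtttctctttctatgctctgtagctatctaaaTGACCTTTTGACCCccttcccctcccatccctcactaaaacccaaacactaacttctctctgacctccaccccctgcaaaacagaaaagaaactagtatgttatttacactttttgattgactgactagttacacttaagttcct

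The number of peaks in the window was compared between the groups. ATRA replicate 1 had 5 peaks there and ATRA replicate 2 had 8, while control replicate 1 had 4 and control replicate 2 had 3. The counts of the groups did not overlap, with means of 6.5 ± 2.1 under ATRA and 3.5 ± 0.71 under ethanol (SD, n = 2 each, two-sided exact permutation p = 0.333, the smallest that 2 libraries against 2 can give). Both ATRA libraries also had more peaks than either control library in 20.6% of the genome windows of this length that held a peak. Per 10000 peaks of its own list, the window took 1.15 and 1.26 in ATRA replicates 1 and 2, against 0.951 and 0.654 in control replicates 1 and 2 (exact permutation p = 0.333). The peaks covered 1825 and 3930 bp in the ATRA libraries and 1380 and 928 bp in the control libraries. The list of ATRA replicate 2 was the longest, with 63541 peaks of median width 416 bp against 42081 to 45903 peaks of 291 to 328 bp in the others, so its values are also given apart below. Sequencing depth is unknown, and a stretch with no peak is one that the peak caller did not list, not one shown to be closed.

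**Figure D1:**
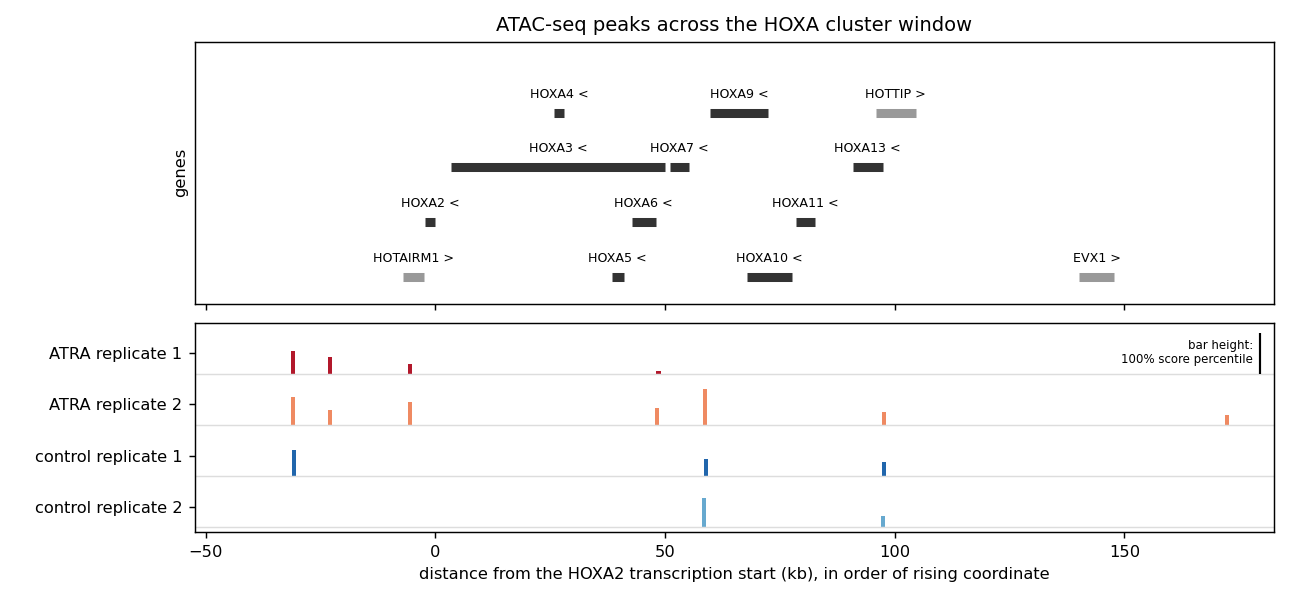
Peaks of the 4 libraries (lower panel) and genes (upper panel, < and > give the strand) along the window, with the distance from the HOXA2 transcription start in kb on the x axis. The height of a bar is the score percentile of the peak within its own list, and narrow peaks are drawn wider than they are. The peaks of 7 of the 8 regions are drawn. The near 3′, HOTAIRM1 and HOXA3 regions have bars in both ATRA libraries only, and long stretches over HOXA2 to HOXA6 and HOXA9 to HOXA11 hold no peak in any library.

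None of the 9 genes had a promoter peak in any library, where a promoter was 1 kb on either side of an annotated start of a protein-coding transcript. Over all 19794 protein-coding genes of the annotation, 53.2% had a promoter peak in ATRA replicate 1, 56.2% in ATRA replicate 2, 51.4% in control replicate 1 and 48.2% in control replicate 2, and 41.3% of the genes had none in any library. Most of the HOXA promoters had the base composition of promoters that are often open. The promoters of HOXA4, HOXA5, HOXA7, HOXA9, HOXA10 and HOXA11 were CpG-rich, here a GC content of at least 55% and an observed over expected CpG ratio of at least 0.65. Of the 6917 genes with such promoters, 26.9% had no promoter peak in any library. The GC content of the 2 kb about the main start ranged from 53.5% for HOXA2 to 66.1% for HOXA10. HOXA2, HOXA3 and HOXA6 fell below the CpG ratio or the GC content asked for, with ratios of 0.600, 0.579 and 0.547.

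Most of these starts lay in 2 stretches without a peak in any list. The first, chr7:27137179-27190450, was 53272 bp long and contained the whole promoters of HOXA2, HOXA4, HOXA5 and HOXA6. The second, chr7:27201448-27239712, was 38265 bp long and contained those of HOXA9, HOXA10 and HOXA11, HOXA9 being the one best known from leukemia. The promoters of HOXA7 lay in a shorter stretch of 9499 bp between them. HOXA3, whose longest transcript begins beyond HOXA6, came nearest to a promoter peak, as a region in its intron ended 1218 bp from that start. HOXA7, HOXA6 and HOXA9 followed, with a region 2929, 3058 and 3629 bp from a start. HOXA4 was the farthest, with 20052 bp between its starts and any region.

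**Figure D2:**
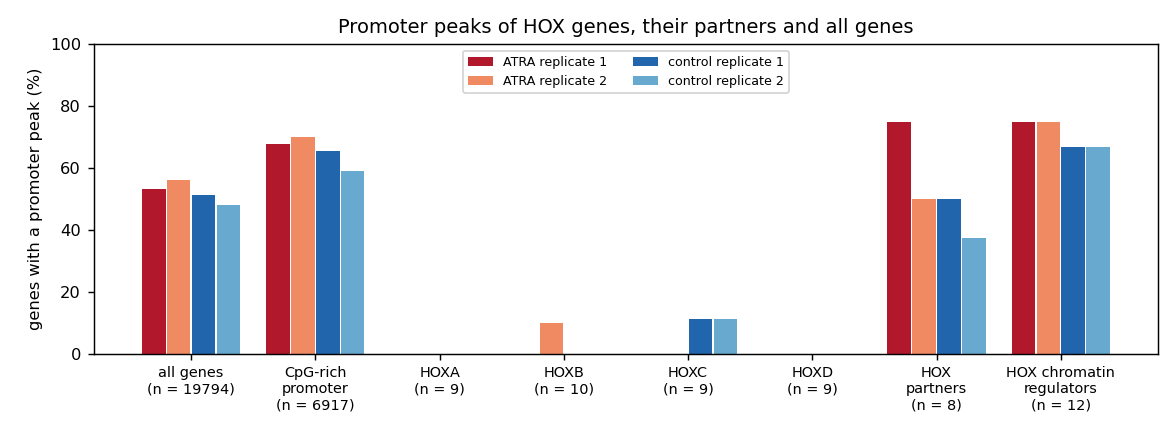
Share of genes with a promoter peak (y axis, %) in each of the 4 libraries for all protein-coding genes, genes with a CpG-rich promoter, the genes of the 4 HOX clusters and the fixed lists of HOX partners and regulators of HOX chromatin. The HOXA bars stand for the 9 genes considered, which leave out HOXA13. None of these 9 has a promoter peak in any library, whereas 48.2% to 56.2% of all genes have.

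A difference between the groups lay on the 3′ side of HOXA2, outside the 9 genes. Below the lowest coordinate of the genes, ATRA replicates 1 and 2 had 4 peaks each, control replicate 1 had 2 and control replicate 2 had 1. The means were 4 ± 0 with ATRA and 1.5 ± 0.71 with ethanol (SD, n = 2 each, exact permutation p = 0.333). Both ATRA libraries had more peaks than either control library in 13.0% of the 50 kb genome windows that held a peak. Between the outer coordinates of the 9 genes the numbers overlapped, with 1 and 2 peaks in the ATRA libraries and 1 in each control library. Above the genes they overlapped as well, with 0 and 2 peaks against 1 in each control library.

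A total of 3 of the 8 regions had a peak in both ATRA libraries and in neither control library, and 0 had the opposite pattern. Over the genome, 8.94% of the regions had the first pattern and 3.37% the second. A peak in all 4 libraries was found for 1 of the 8 regions here and for 30.3% of all regions. With 8 regions, no share can be called particular to the cluster. The ATRA regions were the near 3′ region, a region in HOTAIRM1 and the region in the intron of HOXA3. When each list was cut to its 42081 highest-scoring peaks, the length of the shortest list, 3 ATRA regions were counted again. The count of the opposite pattern changed to 1, because the peak at the start of HOXA13 in ATRA replicate 2 was then left out.

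The near 3′ region (chr7:27119162-27119553) was intergenic and lay 22749 bp from the start of HOXA2. Its peak was 238 bp wide in ATRA replicate 1 and 392 bp wide in ATRA replicate 2. It ranked at a score percentile of 40.0 and 37.4, below the middle of both lists. The centre of the DR2 repeat printed in capitals lay 19 and 11 bp from the centres of these peaks. The far 3′ region (chr7:27111207-27111597) was also intergenic, 30705 bp from the start of HOXA2. It had a peak in 3 libraries, all but control replicate 2. The widths were 355, 342 and 333 bp and the score percentiles 56.9, 68.9 and 64.4 in ATRA replicate 1, ATRA replicate 2 and control replicate 1, so the control value lay between the ATRA values. The centre of its DR5 repeat lay 30, 46 and 8 bp from the centres of the same peaks.

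Such repeats were rare in open regions. Within 200 bp about the centre, DR5 was found in 76 regions of the genome (0.0974%), DR2 in 83 (0.106%) and DR1 in 63 (0.0807%). Of the regions with a DR5 repeat, 27 (35.5%) had a peak in both ATRA libraries and in neither control library, and 0 had the reverse. Of those with a DR2 repeat, 22 (26.5%) had the ATRA pattern and 3 (3.61%) the reverse. The near 3′ region is 1 of these 22, whereas the far 3′ region belongs to neither group. Regions with a DR1 repeat had the ATRA pattern in 15 cases (23.8%) and the reverse in 1 (1.59%). The ATRA pattern was held by 8.94% of all regions. Among regions with the other motifs searched, it was held by 4.84% (CTCF) to 13.3% (PU.1).

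The window was also searched for all copies of these repeats, whether under a peak or not. It held 4 matches to DR5, of which 1 lay under a peak. Over the genome, 1.40% and 2.32% of 5775 matches to DR5 lay under a peak in ATRA replicates 1 and 2, and 0.554% in each control library. A few DR5 matches are printed to compare the open copy with copies where no list had a peak. They are given in the direction of the repeat, with the repeat in capitals and 10 bases on either side, first the open copy (plus strand, chr7:27111415-27111431), then a copy between the 3′ regions (plus strand, chr7:27116930-27116946) and another within HOXA3 (minus strand, chr7:27153143-27153159). The open copy had the half-sites GGGTCA and AGGTCA, and both others had GGTTCA and AGTTCA.
Open copy: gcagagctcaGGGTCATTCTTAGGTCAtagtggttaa
Copy between the 3′ regions: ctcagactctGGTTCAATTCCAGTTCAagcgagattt
Copy within HOXA3: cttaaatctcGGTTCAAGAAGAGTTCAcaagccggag

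The DR2 search gave 15 matches in the window, of which 1, in the near 3′ region, lay under a peak. Over the genome, 0.127% and 0.315% of 108149 matches to DR2 lay under a peak in ATRA replicates 1 and 2. The shares were 0.103% and 0.0758% in control replicates 1 and 2. A total of 9 of the 15 matches in the window had the same letters, and 0 of these 9 lay under a peak. At such low genome shares, 0 of 9 cannot be called particular to these copies.
Commonest DR2 match: AGGTCAGGAGTTCA

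The region in HOTAIRM1 (chr7:27136402-27137178) fell in an intron of this long noncoding RNA, which is known to be induced during granulocytic maturation, 5124 bp from the start of HOXA2. Its peak was 368 bp wide in ATRA replicate 1 and 777 bp wide in ATRA replicate 2. The score percentile was 24.7 and 56.5, so the rank differed between the replicates. The 200 bp about the centre held none of the 10 motifs searched. The middle of the bases shared by both peaks is shown because this ATRA region had the widest peak (chr7:27136687-27136986, plus strand).
HOTAIRM1 region: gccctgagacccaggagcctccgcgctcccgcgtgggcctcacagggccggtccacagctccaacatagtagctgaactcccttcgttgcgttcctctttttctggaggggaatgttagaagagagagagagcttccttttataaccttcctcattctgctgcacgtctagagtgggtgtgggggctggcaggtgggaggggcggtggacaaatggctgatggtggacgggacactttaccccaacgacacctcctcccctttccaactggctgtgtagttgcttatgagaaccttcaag

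The region in the intron of HOXA3 (chr7:27190451-27190984) overlapped an exon of the antisense RNA HOXA-AS3, and it was the ATRA region with the weakest basis. Its peak ranked at a score percentile of 7.04 in ATRA replicate 1 and 40.2 in ATRA replicate 2. The peaks were 224 and 335 bp wide and had 25 bp in common. When peaks had to overlap by 50% of the shorter one, they no longer formed 1 region, and the number of ATRA regions in the window fell from 3 to 2.

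**Figure D3:**
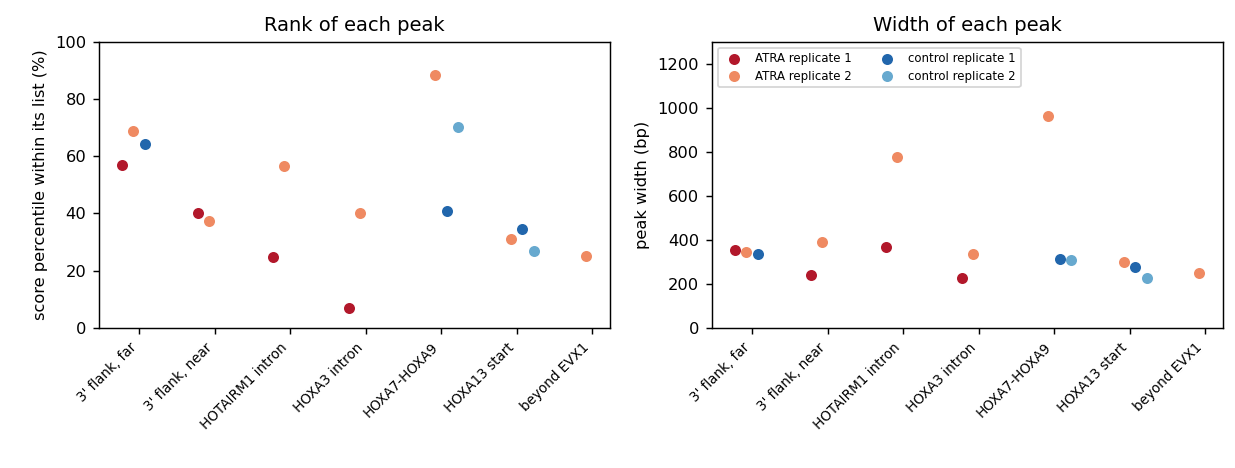
Score percentile of each peak within its own list (left, y axis in %) and peak width (right, y axis in bp) for 7 of the 8 regions of the window in order of rising coordinate, with 1 point for each library that has a peak there. The highest percentile and the widest peak are those of ATRA replicate 2 between HOXA7 and HOXA9, at 88.3 and 964 bp, and the near 3′, HOTAIRM1 and HOXA3 regions have points for both ATRA libraries only.

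Toward the 5′ end of the cluster, the lists of the ATRA replicates differed from each other. The region between HOXA7 and HOXA9 (chr7:27200484-27201447) had a peak in ATRA replicate 2 and both control libraries and none in ATRA replicate 1. Its widths were 964 bp in ATRA replicate 2 and 312 and 309 bp in control replicates 1 and 2. The score percentiles were 88.3, 41.0 and 70.4, the first being the highest in the window. The control peaks did not overlap each other. That of control replicate 2 ended at 27200915 and that of control replicate 1 began at 27201023, and the wide peak of ATRA replicate 2 joined them into 1 region.

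CTCF was searched with the 12-letter core of its consensus. The window held 1 exact match, between HOXA7 and HOXA9, on the minus strand (chr7:27200757-27200768). It is printed 5′ to 3′ on that strand, with the match in capitals and 10 bases on either side.
HOXA7-HOXA9 CTCF match: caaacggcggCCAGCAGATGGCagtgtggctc

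The match lay under the peaks of ATRA replicate 2 and control replicate 2, but not under that of control replicate 1 on the other side of the region. Its centre was 1 bp from the centre of the peak of control replicate 2 and 203 bp from that of ATRA replicate 2. Over the genome, 24.9% and 42.5% of 10977 exact matches lay under a peak in ATRA replicates 1 and 2, against 26.1% and 33.0% in control replicates 1 and 2. Because the joined region was wide, the 200 bp about its centre did not reach the match. By that measure 0 of the 8 regions held a CTCF motif, and searching whole regions gave 1 of 8, against 5.87% and 6.52% of all regions. With 1 mismatch allowed, the window held 19 matches spread from the 3′ flank to beyond HOXA13. Of these, 2 lay under a peak, the exact match and another in the HOTAIRM1 region, which both ATRA libraries and neither control library covered. The others included sites within HOXA3, HOXA10 and HOXA11 where no list had a peak. Such loose matches were common, as 18.2% of all regions held one within 200 bp about the centre, against 0 of the 8 here. The genome share of loose matches that lay under a peak was not computed.

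The last region shared by several libraries lay at the start of HOXA13, the gene at the 5′ end of the cluster (chr7:27239713-27240098), 3 bp from that start, and overlapped an exon of HOTTIP, a noncoding RNA of the same end. It had a peak in ATRA replicate 2 (298 bp) and in control replicates 1 and 2 (275 and 228 bp) and none in ATRA replicate 1. The score percentiles were 30.9, 34.6 and 26.7, in the lower part of each list, and the groups overlapped. Its GC content of 75.6% was the highest of the 8 regions. The remaining region, 31459 bp from the start of EVX1 (chr7:27314446-27314694), had a peak of 249 bp in ATRA replicate 2 only, at a score percentile of 25.1.

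The 8 regions had a median GC content of 59.5% and a median observed over expected CpG ratio of 0.639, compared with 46.2% and 0.219 over all regions. The far and near 3′ regions (39.4% and 37.8% GC) and the region beyond EVX1 (41.8%) differed from the others, which had 58.4% or more. Within 200 bp about the centre, RUNX, AP-1 and HOX-PBX motifs were found in 0 of the 8 regions, and GATA, PU.1 and CEBP each in 1, against 8.55%, 5.72%, 2.02%, 18.8%, 8.94% and 12.3% of all regions in turn. Over whole regions, GATA and CEBP were each found in 2 of the 8, against 35.9% and 23.6% of all regions, and the other 4 counts were as before. A motif that is not found says only that its letters were not in the stretch searched.

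Outside the window, the nearest peaks on either side were in both ATRA libraries and in neither control library. A peak at chr7:27071351-27071584 in ATRA replicate 1 and chr7:27071175-27071714 in ATRA replicate 2 lay 18389 and 18259 bp below the window. Another at chr7:27340085-27340470 and chr7:27340036-27340392 lay 15234 and 15185 bp above it. No control library had a peak within 50 kb of the window. These regions were not counted above. Over the genome, 8.94% of the regions had this pattern, and with so few regions no share can be called particular to the flanks.

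The other HOX clusters were measured in windows with the same flanks to see where HOXA differed. The numbers of peaks in ATRA replicate 1, ATRA replicate 2, control replicate 1 and control replicate 2 were 7, 12, 3 and 2 for HOXB, 3, 5, 2 and 6 for HOXC and 3, 8, 3 and 4 for HOXD. The groups did not overlap for HOXB, as for HOXA, and overlapped for HOXC and HOXD. Of the genome windows of the HOXA length that held a peak, 20.6% had more peaks in both ATRA libraries than in either control library. The HOXB window was longer, and no such share was computed for its length. Of the regions of HOXB, HOXC and HOXD, 1 of 14, 0 of 8 and 0 of 8 had a peak in both ATRA libraries and in no control library, compared with 3 of 8 in HOXA. Over the genome, 8.94% of the regions had this pattern. The difference between clusters was not tested. Like the 9 HOXA genes, nearly all genes of these clusters lacked a promoter peak in every library, with 9 of 10 in HOXB, 8 of 9 in HOXC and 9 of 9 in HOXD. The sets differ, as these include HOXB13, HOXC13 and HOXD13, whereas the 9 HOXA genes leave out HOXA13. The start of HOXA13 lay 3 bp from a region with a peak in 3 libraries. The exceptions were HOXB5, with a promoter peak in ATRA replicate 2, and HOXC4, with one in both control libraries.

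**Figure D4:**
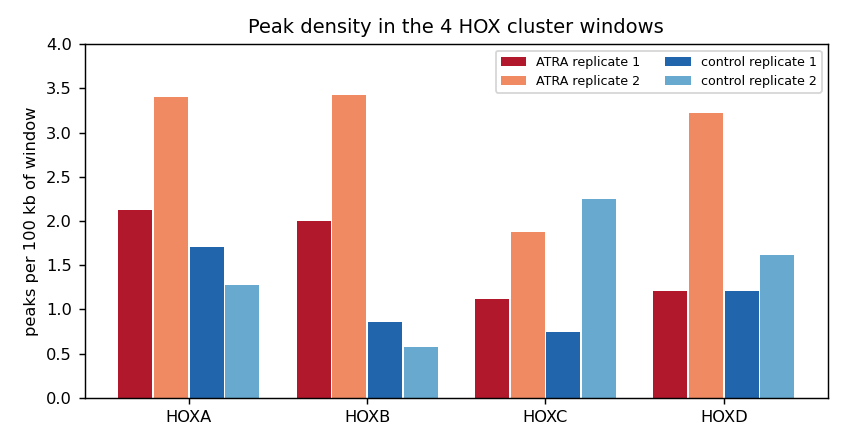
Peaks per 100 kb of window (y axis) in the HOXA, HOXB, HOXC and HOXD cluster windows, with 1 bar for each library. In HOXA both ATRA libraries, at 2.13 and 3.41, lie above both control libraries, at 1.70 and 1.28. The same holds in HOXB, at 2.00 and 3.43 against 0.857 and 0.571, but not in HOXC or HOXD. Both ATRA libraries had more peaks than either control library in 20.6% of genome windows of the HOXA length that held a peak. No such share was computed for the longer HOXB window. The list of ATRA replicate 2 was the longest.

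Promoters of genes that work with HOX proteins were examined alongside. For comparison, 44.3% of all protein-coding genes had a promoter peak in all 4 libraries and 41.3% in none. Among genes with a CpG-rich promoter, the shares were 55.4% and 26.9%. Of 8 partner genes of the MEIS, PBX and PKNOX families, whose proteins bind DNA together with HOX proteins, 3 (MEIS2, PBX3 and PKNOX1) had a promoter peak in all 4 libraries and 2 (PBX4 and PKNOX2) in none. MEIS1, the partner of HOXA9 in leukemia, and MEIS3 had one in ATRA replicate 1 only. Of the 12 regulators of HOX chromatin, 8 had a promoter peak in every library, among them KMT2A, a Trithorax methyltransferase, EZH2, the Polycomb methyltransferase, and CTCF. The CDX genes, which activate HOX genes in the embryo, had none. DOT1L, a histone methyltransferase tied to HOXA9 in leukemia, had a promoter peak in both ATRA libraries and in neither control library, a pattern that 2.23% of all genes had and 0 of the 9 HOXA genes. Among 10 myeloid marker genes, 5 had a promoter peak in all libraries, SPI1 and CD33 among them, and AZU1 and ELANE had none, while 2 of 10 markers of other cell types, CD79A and COL1A1, had one in all libraries.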

How the data were processed

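ATAC-seq was performed on 2 ATRA-treated and 2 control replicates of HL-60 cells, with groups taken from the sample titles. The authors removed adapters, aligned reads to hg19 (Bowtie in the methods, Bowtie2 in the submitters' processing notes) and called peaks for each library with MACS2 at default settings, and no Tn5 shift, duplicate removal or blacklist filter is stated. The deposited lists give a position and a score per peak, the peak caller's own value with no stated scale, which was used here only as a percentile within a list. They hold no read counts, so depth is unknown. A partner gene and a place in the window are not reported here.

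The reference was GRCh37 with GENCODE release 44 lifted to it. Of the chromosomes in the lists, 0 were missing from it, and 0 peaks passed a chromosome end. The study called peaks shared when they overlapped by 1 bp, and the same overlap joined peaks into regions. A region was given to a group when both its libraries and no library of the other group had a peak. Libraries were compared with two-sided exact permutation tests, which cannot go below 0.333 here. Motifs were searched on both strands: the GATA motif as AGATAA or TGATAA, PU.1 as GAGGAAGT, RUNX as AACCACA, C/EBP (CEBP) as TTGCNNAA, AP-1 as TGACTCA or TGAGTCA, HOX-PBX as TGATTNAT, and CTCF, DR1, DR2 and DR5 by a consensus of 12 or more letters. Matches of different motifs may overlap. Motifs other than CTCF were chosen after the lists had been seen. The genes described were the 9 members, and others only as places or in the lists of partners, regulators and markers. The members and lists were chosen with earlier results of these data known. The scripts were tested on simulated data and ran under Python 3.11.15 (numpy 2.4.6, pandas 2.3.3; plots by matplotlib 3.10.9).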

Additional observations from a re-analysis of the deposited data

How the results depend on the processing

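The difference in window peaks (ATRA minus control, 3) kept its direction under every alternative, from 0.5 without flanks to 4.5 without ATRA replicate 1, and was 1.5 without ATRA replicate 2. That in covered length (1724 bp) was 451 bp without flanks, 671 bp without ATRA replicate 2 and 2776 bp without ATRA replicate 1. With the window turned to 100 kb below and 50 kb above they were 3.5 and 1986 bp, and with equal numbers of peaks 2 and 1450 bp. No fit could pass a threshold. The replicate block left the peak difference at 3 (paired exact permutation p = 0.5). Same-numbered libraries deviated together in score percentile (r = 0.211 across 23653 regions in all libraries, which are not independent replicates), but nothing in the labels pairs them. For regions shared by all libraries, the difference in score percentile (-2.41) lay at -10.0 with equal numbers of peaks, at -3.03 when control replicate 1 was left out, at 9.03 without ATRA replicate 1, where 3 regions were shared by the libraries kept, and at 0.974 without ATRA replicate 2. The number of regions in all libraries (1) was 0 without flanks and 1 to 3 with a library left out. Control regions (0) numbered 1 with equal numbers of peaks and 0 to 1 with a library left out. ATRA regions (3) numbered 1 without flanks, 2 with an overlap of 50% of the shorter peak, 4 with the window turned and 3 to 4 with a library left out. Regions with a CTCF motif (0) numbered 1 when whole regions were searched and 0 to 1 with a library left out. The number of libraries and the unknown depth limit all of these.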
